A study of Caenorhabditis elegans with 21 samples.

Results

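The fbxc genes are the F-box C family of Caenorhabditis elegans. They were taken here as every protein-coding gene whose name starts with fbxc- in the Ensembl WBcel235 annotation, which gave 48 of the 20134 gene identifiers in the count table. An F-box protein is the part of an SCF (Skp1, cullin, F-box) ubiquitin ligase that picks the substrate. Its F-box binds a Skp1-related adaptor, which docks on a cullin, and the cullin carries a RING protein that recruits the ubiquitin-conjugating enzyme. Nematodes have greatly expanded families of F-box genes, many of them in tandem copies with no described substrate. The values here are small RNAs that matched these genes, not messenger RNA. In worms such secondary small RNAs are copied from target transcripts by RNA-dependent RNA polymerases and are carried by Argonaute proteins.

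Small RNAs of whole worms of the L4 stage were counted in 21 libraries of 5 genotypes, all grown at 15 °C on peptone rich plates with NA22 bacteria. Wild type had 9 libraries (A to I), and the 4 mutants, which were mut-7(ne4255), mut-2(ne3370), DPF-3 S784A and a dpf-3 null, had 3 libraries each. The title of the study names protease processing of Argonautes. DPF-3 is a dipeptidyl peptidase, and S784A replaces a serine of the protein with alanine. Amplification of silencing small RNAs needs both MUT-7, an exonuclease-like protein, and MUT-2, which adds nucleotides to RNA ends. The labels name no allele for the null and do not say whether replicates were separate cultures. The p-values therefore speak of the spread among these libraries alone, which may be technical. In bulk RNA of whole worms, fewer cells of a type and less small RNA per cell cannot be told apart.

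The libraries held 40693 to 583038 counts in features, and 53.1% to 90.7% of the reads counted fell in no feature. Wild-type libraries A–F and G–I differed from each other although the labels do not separate them, so the results of the fbxc genes tested are given against both sets. The dispersion, which measures the spread between libraries of a group, was 0.0947 with 1 wild-type mean and 0.00466 with a mean for each set. Small RNAs matching dpf-3 fell to 5 counts in the null (5.72 to 13.5 counts per 1000000, or CPM, by library), below its wild-type range of 67.0 to 154 CPM. The small RNAs of mut-2 and mut-7 do not test those mutations. Markers were read as small RNAs too and cannot check which cells were present. Summed sperm genes (31) took 0.0780 to 0.212 of 10000 feature counts in A–F, where 16 of them had no count, and 3.35 to 4.86 in G–I, where all 31 had a count. Summed intestine genes (8) took at most 0.133 in A–F and 2.00 to 2.09 in G–I.

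Most small RNAs against the family matched 1 gene. The 48 genes together had 9887 counts over the 21 libraries, and fbxc-43 had 7917 of them, or 80.1%. By library its share was 76.5% to 83.7% in wild type and the dpf-3 genotypes, and 51.5% to 90.5% in the mut mutants, where counts were few. With fbxc-44 and fbxc-23 the share over all libraries was 90.2%. Of the other 45 genes, 20 had 10 or more counts in all, 15 had 1 to 9, and 10 had none. No more than 26 of the 48 genes had a count in any 1 library, and in mut-2 libraries 2 to 8 did. Only these 3 of the 48 had enough counts to pass the filter on low values. All 3 were highest in wild type. fbxc-23 passed through wild-type libraries A–F alone, while fbxc-43 and fbxc-44 also had enough counts in the dpf-3 genotypes. Comparisons of fbxc-23 that use A–F are therefore a description and no support. The falls in the mutants are described gene by gene and their number supports nothing by itself.

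The leading pair of genes are neighbours. fbxc-43 (WBGene00045297) lies on chromosome II from 4234903 to 4235996 on the minus strand, with 992 exon bases in 3 exons. fbxc-44 (WBGene00015819) lies on the same strand from 4236504 to 4237751, 507 bases away, with 985 exon bases. fbxc-23 (WBGene00013009) stands alone far along the chromosome, from 13595003 to 13596555 on the minus strand, with 955 exon bases in 5 exons. None of the 3 shares exon sequence positions with another annotated gene. No substrate of any of them is described here. Per kilobase of exon, mean wild-type levels were 3032 CPM for fbxc-43, 270 for fbxc-44 and 140 for fbxc-23. The next were fbxc-45 with 55.6, fbxc-47 with 54.8, fbxc-39 with 34.3 and fbxc-50 with 30.0, all in wild type on the same scale.

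The remaining copies had few small RNAs wherever they lay. Of the 48 genes 35 are on chromosome II and 13 on chromosome IV, and 27 lie within 1000 bases of another member. The densest stretch, from 907448 to 993179 on chromosome II, holds 18 members. There 16 had a count, but together they had 312, or 3.16% of the family's counts. On chromosome IV a tandem array from 891239 to 911196 alternates 5 shorter genes (fbxc-1 to fbxc-5, 1128 exon bases) with 5 longer ones (fbxc-8 to fbxc-12, 1413 exon bases) at a spacing of 4152 or 4153 bases. In wild type the shorter copies had 63 counts and the longer ones 2. Such regular copies may share reads, and how reads with several positions were handled is not given in the sources used here, so the split among copies is uncertain. The annotation gives several copies the same name, and they are told apart here by their RefSeq symbols.

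**Figure D1:**
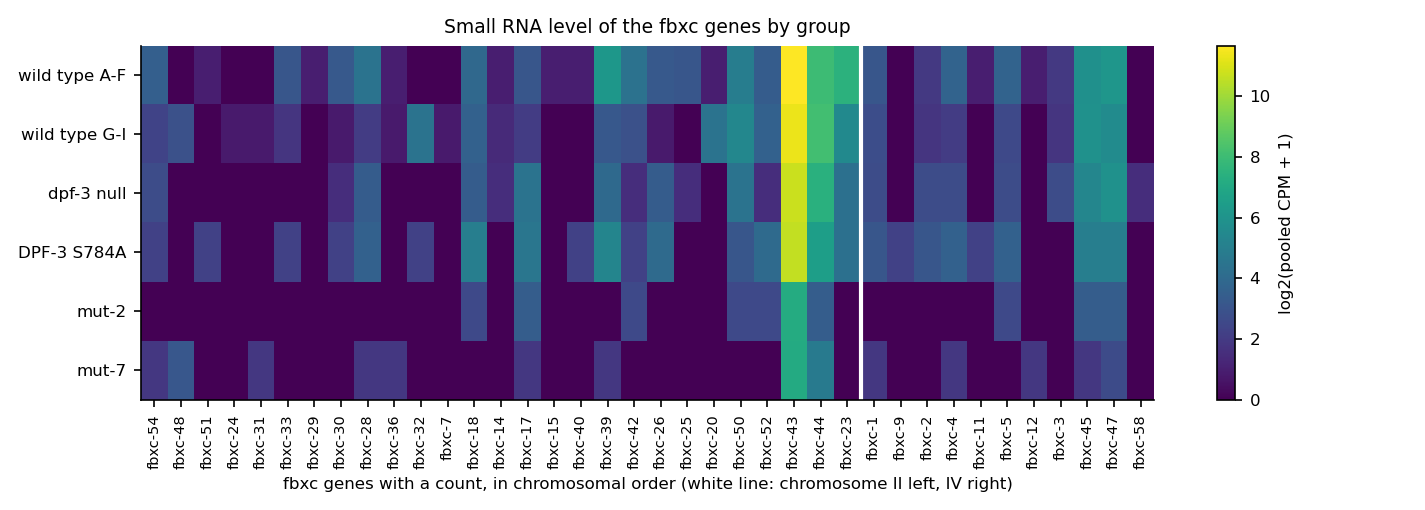
Pooled small RNA level, as log2(CPM + 1), of the 38 fbxc genes with a count (columns, in chromosomal order) in the 6 groups of libraries (rows). fbxc-43 is the brightest column in every row, and most other columns are dark in mut-2 and mut-7.

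Levels of the 3 tested genes are CPM of the library size after TMM scaling, which assumes that most features do not change. For fbxc-43 the wild-type libraries A–F ranged from 3003 to 3599 CPM with a median of 3275. Wild type G, H and I had 2412, 2391 and 2740 CPM. The dpf-3 null libraries A, B and C had 1590, 1751 and 1726 CPM. All 3 lay below every wild-type library. The DPF-3 S784A libraries had 1482, 1510 and 1617 CPM, also below every wild-type library. The mut-2 libraries had 203, 88.0 and 158 CPM and the mut-7 libraries 168, 107 and 158 CPM. These 6 lay far below all others, at 7 to 19 counts per library.

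For fbxc-44 wild type A–F ranged from 225 to 294 CPM with a median of 265. Wild type G, H and I had 277, 252 and 310 CPM, so the sets overlapped. The dpf-3 null libraries had 144, 200 and 160 CPM, all below wild type. The DPF-3 S784A libraries had 75.7, 96.4 and 103 CPM and lay below those of the null as well. In mut-2 only library C had any, with 31.6 CPM from 2 counts. In mut-7 libraries A and B had 31.5 and 44.2 CPM, from 3 and 7 counts, and library C had none.

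For fbxc-23 wild type A–F ranged from 112 to 216 CPM with a median of 197. Wild type G, H and I had 52.6, 35.5 and 42.2 CPM, all below A–F. The dpf-3 null libraries had 36.0, 11.4 and 0 CPM and the DPF-3 S784A libraries 10.8, 48.2 and 9.35 CPM. Both dpf-3 genotypes overlapped the G–I set and lay below A–F. No mut-2 or mut-7 library had a count. A count of 0 allowed up to 14.8 CPM over the mut-2 libraries and 8.02 CPM over the mut-7 libraries, at 3 counts, which covers counting error only.

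**Figure D2:**
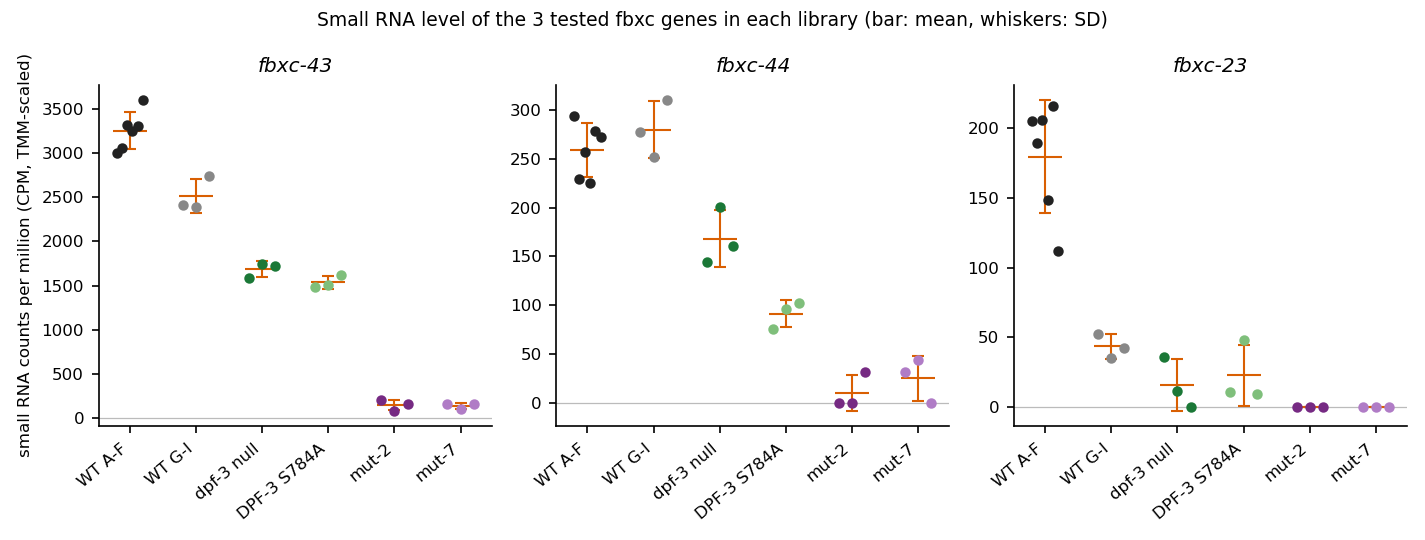
Small RNA level in CPM (vertical axes, linear) of fbxc-43, fbxc-44 and fbxc-23 in each of the 21 libraries (points), with the mean and SD of each group. fbxc-43 steps from 3003 to 3599 in wild type A–F down to 88.0 to 203 in mut-2 and mut-7, while fbxc-23 is already low in wild type G–I.

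Small RNAs of fbxc-43 and fbxc-23 were lower in the dpf-3 null than in wild type. In the null against all 9 wild-type libraries fbxc-43 fell by a log2 change of -0.83 (SE 0.19, adjusted p = 0.00107, edgeR), a fold of 1.78. fbxc-23 changed by -2.80 (SE 0.76, adjusted p = 0.00688), a fold of 6.96, and by -4.30 (adjusted p = 0.00731) without null library A, which held 8 of its 10 counts. fbxc-44 was lower in all 3 libraries, at log2 -0.67 (SE 0.28), and did not pass (adjusted p = 0.0713). It passed against A–F (-0.63, adjusted p = 0.00300) and against G–I (-0.76, adjusted p = 0.000177), where wild type was fitted as 2 sets. So 2 of the 3 genes were called lower and 0 higher, where 23.2% of all 5038 features tested were called lower and 13.5% higher. Against A–F 27.2% of features were lower, and against G–I 28.2%, and all 3 genes were lower against each set.

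The size of the fall in the null depended on the wild-type set for fbxc-23 above all. Against A–F it changed by log2 -3.23 (SE 0.35, adjusted p = 9.56e-17, edgeR) and against G–I by -1.23 (SE 0.47, adjusted p = 0.0188). fbxc-43 changed by -0.95 (SE 0.10) against A–F and by -0.58 (SE 0.11) against G–I.

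In DPF-3 S784A, which changes 1 residue of the protein, all 3 genes were called lower and none higher than in wild type. fbxc-43 changed by log2 -0.97 (SE 0.19, adjusted p = 0.000382, edgeR), fbxc-44 by -1.53 (SE 0.35, adjusted p = 0.00156) and fbxc-23 by -2.67 (SE 0.90, adjusted p = 0.0320). Among all features 21% were called lower and 7.94% higher. Against A–F, where 24.7% of features were lower, the log2 changes were -1.08, -1.48 and -3.19 in the same order, all called. Against G–I, where 25.3% were lower, they were -0.71, -1.62 and -1.20, and that of fbxc-23 did not pass (adjusted p = 0.106). Its call with all wild-type libraries was also lost without S784A library A (adjusted p = 0.141) or C (adjusted p = 0.164), and it rests on 5 counts. Without library B, which held 3 of them, the change was -3.72 (adjusted p = 0.0322).

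The 2 dpf-3 genotypes were compared directly. No fbxc gene was called between the null and S784A by edgeR, and 0.0397% of all features were. With wild type as 2 sets and TMM scaling, 97 of 5038 features were called lower and 28 higher in the null, and again no fbxc gene. fbxc-44 had the largest difference, higher in the null by log2 0.87 (SE 0.41, unadjusted p = 0.0437, adjusted p = 0.970), and it was the only 1 of the 3 with an unadjusted p under 0.05. Its 3 null libraries were all above its 3 S784A libraries. With wild type as 2 sets its adjusted p was 0.204 with TMM scaling, and it was called with all reads counted (log2 1.14, SE 0.34, adjusted p = 0.0293). fbxc-43 differed by 0.14 (SE 0.22, adjusted p = 0.984) and fbxc-23 by -0.13 (SE 1.28, adjusted p = 1.00). With SEs of this size, 2-fold differences in fbxc-23 were not detectable.

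Small RNAs of all 3 genes were nearly lost in both mut mutants. In mut-2 fbxc-43 changed by log2 -4.35 (SE 0.26, adjusted p = 3.65e-11, edgeR), a fold of 20.5. In mut-7 it changed by -4.39 (SE 0.25, adjusted p = 1.13e-11), a fold of 21.03. For fbxc-44 the level in wild type was 27.5 times that in mut-2 (95% interval 7.58 to 228, from 2 counts, both in mut-2 library C). Its log2 change in mut-7 was -3.31 (SE 0.41, adjusted p = 4.17e-07), and -4.16 without mut-7 library B, which held 7 of the 10 counts. fbxc-23, without a count in either, was at least 7.27-fold lower in mut-2 and at least 13.5-fold lower in mut-7, taking 3 counts over the mutant libraries against all 9 of wild type. Against G–I alone these bounds were 3.03 and 5.61.

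All 3 genes were called lower in each mut mutant and 0 higher. Of all features 31.5% were lower and 16.1% higher in mut-2, and 33.2% lower and 23.3% higher in mut-7. The calls were the same against each wild-type set. There 32.7% of features were lower in mut-2 against A–F and 33.7% against G–I, and 34.5% and 35.4% in mut-7. fbxc-43 changed by log2 -4.49 and -4.12 in mut-2, and by -4.54 and -4.17 in mut-7, against A–F and G–I in that order. All 4 mutants were compared with the same wild-type libraries, so the direction they share is not independent between them.

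Between mut-2 and mut-7 no fbxc gene was called by edgeR, where 0.854% of features were, and none of the 3 had an unadjusted p under 0.05. With wild type as 2 sets, 96 of 5038 features were called lower and 130 higher in mut-2, and again no fbxc gene. fbxc-43 differed by log2 0.04 (SE 0.30, adjusted p = 1.00). fbxc-44 was at 2 counts in mut-2 and 10 in mut-7 (log2 -1.34, SE 0.89, adjusted p = 0.655).

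The dpf-3 genotypes kept far more of these small RNAs than the mut mutants did. With both dpf-3 genotypes set against both mut genotypes, fbxc-43 was higher by log2 3.47 (SE 0.19, adjusted p = 1.85e-11, edgeR), a fold of 11.1. fbxc-44 was higher by 2.88 (SE 0.43, adjusted p = 1.57e-05), a fold of 7.35. Without mut-2 library C, which leaves mut-2 at 0 for this gene, the fitted value was 4.78, which is no bound. fbxc-23 had 15 counts in the 6 dpf-3 libraries and none in the 6 mut libraries, and its difference did not pass (adjusted p = 0.0529). It passed with wild type as 2 sets (adjusted p = 0.000807). Thus 2 genes were called higher and 0 lower, where 27.9% of features were called higher and 7.56% lower.

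Calls in the dpf-3 genotypes depended in part on the library scaling. With libraries scaled to their feature totals, fbxc-43 changed by log2 -0.17 in the null (adjusted p = 0.321, edgeR) and -0.34 in S784A (adjusted p = 0.0686), neither called. With all reads counted it was called lower in both, at -0.97 (adjusted p = 0.00349) and -1.39 (adjusted p = 0.000119). fbxc-23 was called lower under all 4 scalings tried (TMM, DESeq2 size factors, feature totals and all reads counted), at -2.07 (adjusted p = 0.00858) in the null and -1.97 (adjusted p = 0.0393) in S784A with feature totals. That scaling moved the median of all features from 0.18 to 0.76 in the null and from 0.04 to 0.59 in S784A. Relative to that median, fbxc-43 stood with TMM scaling at -1.01 in the null and -1.003 in S784A, while mut-2 gave -4.34 and mut-7 -4.51. A scaling shifts all features nearly alike, so these differences from the median hardly change with it by construction. In mut-2 and mut-7 the fall of fbxc-43 was called under all 4 scalings. fbxc-44 in S784A was also not called with feature totals (log2 -0.97, adjusted p = 0.0533). Relative to the median it stood at -1.57 with TMM scaling.

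**Figure D3:**
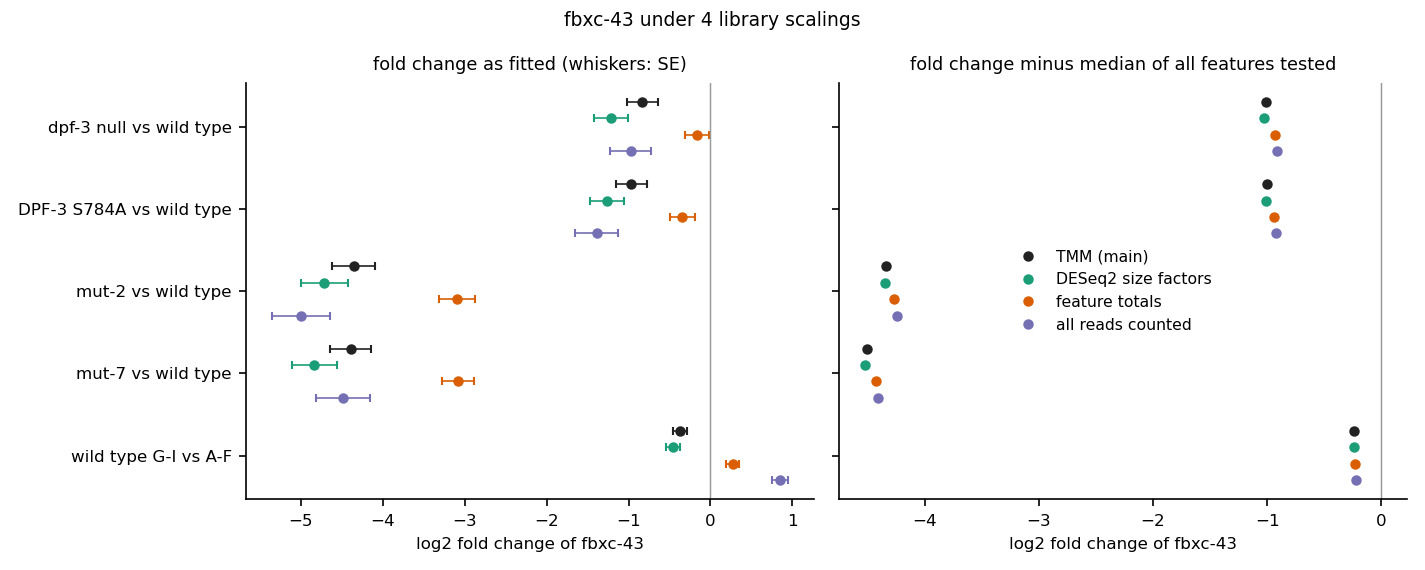
Log2 fold change of fbxc-43 in 5 comparisons (rows) under 4 library scalings (colours), as fitted with its SE (left) and after subtracting the median of all features tested (right). The spread between scalings on the left, from -0.17 to -1.22 in the null, shrinks to -0.91 to -1.02 on the right, which follows from the subtraction.

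Summed over all 48 genes, the family took 20.9 to 23.4 of 10000 feature counts in wild type A–F and 24.7 to 28.2 in G–I. It took 19.9 to 21.96 in the null, which overlaps A–F, and 17.9 to 19.0 in S784A, below all wild-type libraries. In mut-2 it took 1.60 to 4.24 and in mut-7 2.68 to 3.82, far below the rest. Of 10000 reads counted, those in no feature included, the shares were 6.10 to 7.29 in A–F, 11.4 to 13.1 in G–I, 4.003 to 4.78 in the null and 3.20 to 3.46 in S784A. By that measure both dpf-3 genotypes were below every wild-type library, and mut-2 (0.149 to 0.429) and mut-7 (0.337 to 0.530) were lower still.

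**Figure D4:**
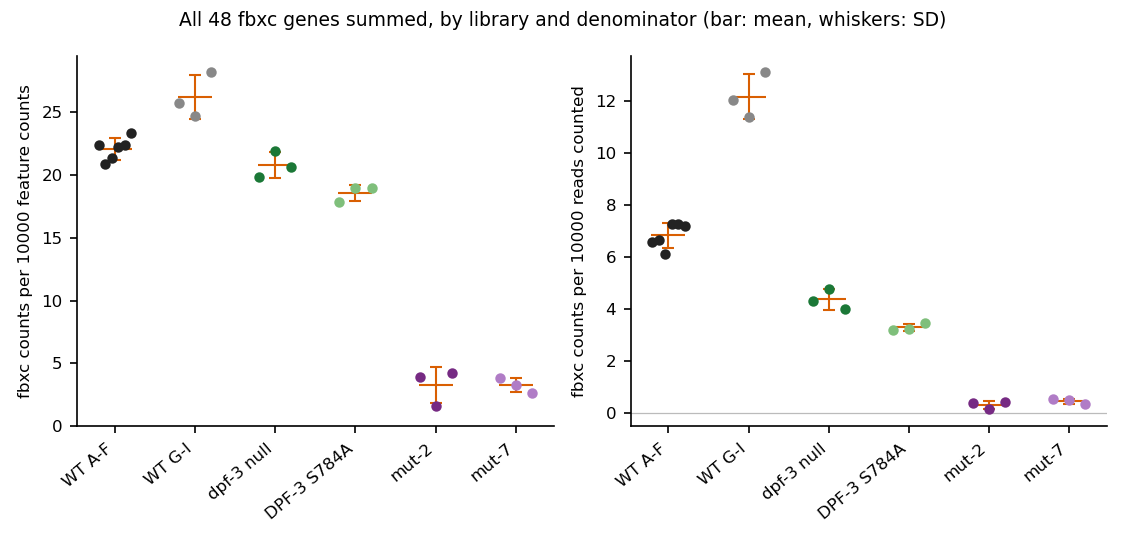
Counts of all 48 fbxc genes per 10000 feature counts (left) and per 10000 reads counted (right) in each library (points), with the mean and SD of each group. The null libraries (19.9 to 21.96) overlap wild type A–F (20.9 to 23.4) on the left and lie below them on the right.

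The wild-type sets differed for some members and not for others. fbxc-23 was lower in G–I than in A–F by a log2 change of -1.99 (SE 0.23, adjusted p = 7.44e-16, edgeR), and no library of one set overlapped the other. This gene passed the filter through A–F alone, where it is high. Its p-value and the lack of overlap are therefore a description and no support. fbxc-23 was called lower under all 4 scalings, from -0.79 with all reads counted to -2.08 with size factors, and stood at -1.86 relative to the median with TMM scaling. fbxc-43 changed by -0.37 (SE 0.09, adjusted p = 8.02e-05) with TMM scaling, but was called higher with feature totals (log2 0.27, adjusted p = 0.00107) and with all reads counted (log2 0.85, adjusted p = 6.93e-18). Relative to the median of all features it stood at -0.24 with TMM scaling. fbxc-44 did not pass with TMM scaling (log2 0.14, SE 0.14, adjusted p = 0.429). It was called higher with feature totals (0.77, adjusted p = 1.47e-07) and with all reads counted (1.35, adjusted p = 6.39e-19), and without the filter (0.52). So with TMM scaling 2 of the 3 were lower and 0 higher, where 33.5% of features were lower in G–I and 17.7% higher. With feature totals or all reads counted 1 was lower and 2 higher. The shares of all features called under those scalings are not given here.

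Ratios within a library need no scaling. Per 100 counts of fbxc-43, wild type A–F had 6.94 to 9.79 counts of its neighbour fbxc-44 and G–I 10.5 to 11.5, without overlap. The null had 9.07 to 11.4, across that gap, and S784A 5.11 to 6.38, below every wild-type library. For fbxc-23 the ratio was 3.11 to 6.83 in A–F and 1.48 to 2.18 in G–I, again without overlap. In the null it was 0 to 2.27 and in S784A 0.578 to 3.19. A changed ratio shows that the genes changed unequally and not which of them changed.

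**Figure D5:**
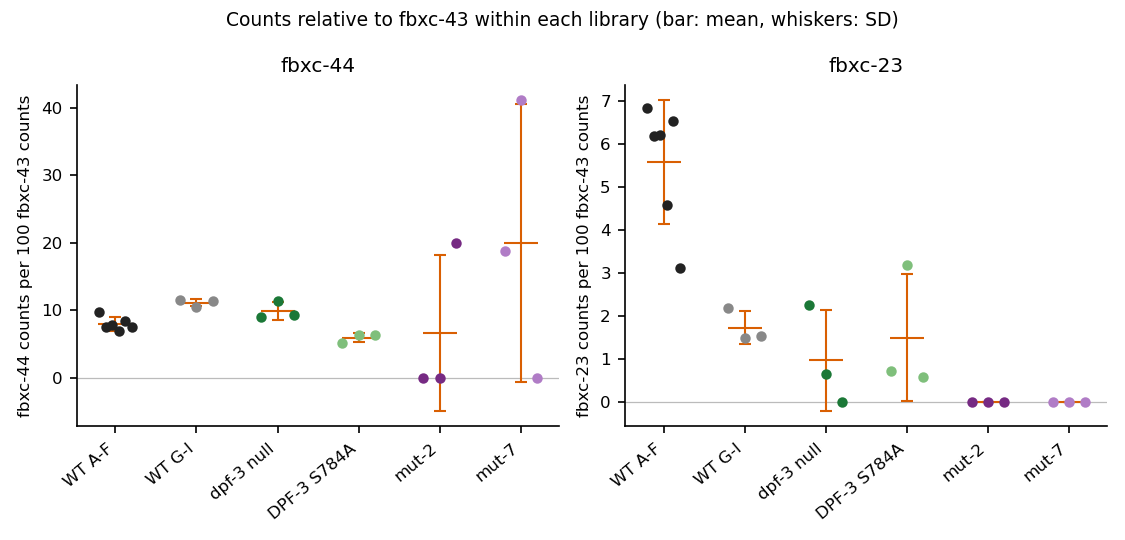
Counts of fbxc-44 (left) and fbxc-23 (right) per 100 counts of fbxc-43 in each library (points), with the mean and SD of each group. The fbxc-23 ratio is 3.11 to 6.83 in wild type A–F and at most 3.19 in every other group, and the mut ratios on the left rest on at most 7 counts of fbxc-44 per library.

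Members under the filter were described by counts, and by a fit of every feature with a count (28149 features, 38 of the members). In that edgeR fit, calls of lower small RNAs were made for 7 members in mut-2 and 9 in mut-7. Background shares were 9.89% of features lower in mut-2 and 11.9% in mut-7. The members called in both were fbxc-43, fbxc-44, fbxc-23, fbxc-39, fbxc-45, fbxc-47 and fbxc-50, and fbxc-18 and fbxc-42 were added in mut-7. fbxc-45 (chromosome IV, 2919827 to 2922243) had 134 counts in wild type, 21 in the null, 8 in S784A, and the mut mutants had 2 (mut-2) and 1 (mut-7). Its log2 change was -2.96 (adjusted p = 0.00166) in mut-2 and -4.49 (adjusted p = 4.58e-07) in mut-7. All mut libraries lay below all wild-type libraries.

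fbxc-47 (chromosome IV, 3805519 to 3806712) had 132 counts in wild type, 31 in the null, 8 in S784A and 2 in each mut mutant. The wild-type level was 0.998 times that in the null (95% interval 0.671 to 1.53). Its log2 change was -2.94 (adjusted p = 0.00162, edgeR) in mut-2 and -3.68 (adjusted p = 3.82e-06) in mut-7. Its exons overlap M02B7.7 and the antisense RNA gene anr-18 on the other strand, and since the strand setting of the counting is not given, their reads cannot be told apart. fbxc-50 (chromosome II, 3246316 to 3248123) had 82 counts in wild type, 11 in the null, 2 in S784A, and the mut mutants had 1 (mut-2) and 0 (mut-7). Its wild-type level was at least 4.49 times that in mut-7.

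The 45 genes under the filter, summed, were also set beside fbxc-43. Per 100 counts of fbxc-43 they had 10.4 to 14.1 in wild type A–F, 9.62 to 12.2 in G–I and 10.1 to 15.0 in the null, which overlap. In S784A they had 17.02 to 19.0, above all wild-type libraries. In mut-2 they had 14.3 to 60.0 and in mut-7 10.5 to 52.9, with pooled ratios of 37.9 and 28.8 above the 17.8 of S784A, on few counts. By group the sums were 412 counts in A–F, 333 in G–I, 121 in the null and 72 in S784A. Mutants of mut-2 held 11 and those of mut-7 15. Pooled, they held 2.19 of 10000 feature counts in wild type (95% interval 2.04 to 2.36), 2.25 in the null (1.87 to 2.69) and 2.65 in S784A (2.07 to 3.34). The pooled values were 0.827 in mut-2 (0.413 to 1.48) and 0.628 in mut-7 (0.352 to 1.04). These intervals cover counting error only.

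Some members did not overlap between the wild-type sets. Of the members with a wild-type count, 28 overlapped between the sets, while 5 lay wholly lower in G–I and 3 wholly higher. The share of all features without overlap is not given here, so these counts do not single out the family. fbxc-32 had no count in libraries A–F and 11, 6 and 8 in G, H and I, at least 7.20-fold higher in G–I. fbxc-20 had 1 count in A–F and 8, 8 and 9 in G, H and I, a ratio of 21.6 (95% interval 3.54 to 887). fbxc-20 shares exon positions with F42G2.7, so its reads may belong to either. fbxc-48 had none in A–F and 4, 1 and 3 in G, H and I, at least 2.305-fold higher, and its other 3 counts were all in mut-7 library B. The opposite held for fbxc-39, with 76 counts in A–F and 10 in G–I, a ratio of 8.79 (95% interval 4.53 to 19.1). In the fit of every feature with a count, 4 members were lower in G–I (fbxc-23, fbxc-39, fbxc-25 with 8 counts against 0, and fbxc-28 with 22 against 4) and 4 higher (fbxc-20, fbxc-32, fbxc-44 and fbxc-48), by edgeR. Of all features 7.09% were called lower and 10.7% higher, so these counts among 38 members are near the background. These genes were singled out after their values were seen. The sperm and intestine sums given above moved with the same sets, and sperm sums were also 3.82 to 4.47 in mut-7, against 0.472 to 1.47 in mut-2 and 0.159 to 0.627 in the dpf-3 genotypes. Their part in these differences was not tested.

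Small RNAs of other marker lists moved with the mutants and the wild-type sets, on the same scale of 10000 feature counts. The 7 oocyte genes took 3.20 to 4.12 in A–F, 7.72 to 8.12 in G–I, 8.60 to 12.3 in the dpf-3 genotypes and 10.8 to 18.3 in the mut mutants. The 5 muscle genes took 1.201 to 2.12 in A–F, 0.550 to 0.686 in G–I, 1.60 to 1.68 in the null, 3.13 to 6.54 in S784A and at most 0.499 in the mut mutants. The 6 neuron genes took 1.93 to 2.79 in A–F, 1.22 to 1.27 in G–I, 1.48 to 2.299 in the dpf-3 genotypes and 0.383 to 1.47 in the mut mutants. The intestine genes stayed at or under 0.638 in all mutants. Among the marker genes tested, the neuron gene egl-21 was called lower in all 4 mutants by edgeR, ida-1 in all but S784A, and the oocyte gene puf-5 in the null. The oocyte gene cbd-1 was called higher in all but mut-2, and oma-1 in mut-2 and mut-7. The muscle myosin gene unc-54 was higher in S784A (log2 1.30, adjusted p = 0.0348) and lower in mut-2 (log2 -5.08) and mut-7 (log2 -4.46). The part of these lists in the fbxc differences was not tested.

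fbxc-39 (chromosome II, 988737 to 991146) also stood at different levels in the 2 wild-type sets. Its pooled level was 71.9 CPM in A–F, 8.18 in G–I, 15.0 in the null and 38.2 in S784A. All 3 S784A libraries (16.1 to 56.1 CPM, from 3, 1 and 6 counts) lay above all G–I libraries (6.07 to 10.6 CPM, from 3, 2 and 5 counts). They overlapped A–F (38.6 to 88.9 CPM). The A–F level was 1.88 times that in S784A (95% interval 0.970 to 4.08), and the G–I level 0.214 times (0.0800 to 0.573). These intervals cover counting error only. In the edgeR fit of every feature with a count, S784A was called against neither set, so a turned direction is not shown.

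Other substrate-adaptor families are given beside the fbxc genes. Of 170 fbxa genes, another F-box family, 38 were tested, and 18, 17, 32 and 33 were called lower in the null, S784A, mut-2 and mut-7 by edgeR, with at most 1 higher, against all 9 wild-type libraries. Their median log2 changes were -1.45, -1.41, -5.89 and -6.54. Of 104 fbxb genes 11 were tested, with 8, 6, 9 and 11 lower and 0 higher, and medians of -3.22, -2.27, -4.92 and -6.83. Of 73 bath and math genes, whose MATH and BTB domain products serve as adaptors of another class of cullin ligase, 25 were tested. There 10, 10, 16 and 16 were lower and 2, 2, 2 and 3 higher, with medians of -0.96, -0.70, -3.68 and -3.91. These medians kept their sign under all 4 scalings and against each wild-type set, but counts in the dpf-3 genotypes depended on the set. Against A–F 32 fbxa genes were lower and 2 higher in the null, and 29 and 0 in S784A. Against G–I 18 were lower and 12 higher in the null (median -0.66), and 15 and 13 in S784A (median -0.41). Of the fbxb genes 7 were lower and 1 higher in the null against G–I, and 6 and 4 in S784A. Of the bath and math genes these counts were 9 and 5, and 9 and 4. In the mut mutants at least 27 fbxa genes were lower against either set, with at most 4 higher. Of all features 21.9% were higher in the null against A–F and 25.4% against G–I, and in S784A 10.7% and 18%. The share of genes that passed the filter was 6.25% for fbxc, 22.4% for fbxa, 10.6% for fbxb and 34.2% for bath and math. As for fbxc-23, a gene that passed through wild type only had to be lower elsewhere, and no test between families was made.

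The rest of the SCF machinery, together with cullins of other ligases, was read from a list of its own. The genes on it are called the SCF genes here for short. Of 38 genes for cullins, Skp1-related adaptors, RING partners and other well-known F-box proteins, 15 were tested. None was called lower in a mutant by edgeR, and 2, 2, 2 and 4 were called higher in the null, S784A, mut-2 and mut-7. Beside the 13.5%, 7.94%, 16.1% and 23.3% of all features called higher, these counts of 15 are near the background. Against A–F 5, 1, 1 and 5 were higher and 1 was lower, in mut-7, and against G–I 4, 3, 2 and 4 were higher and 0 lower. Of all features 19.1% were higher in mut-2 against A–F and 18.1% against G–I, and in mut-7 29.2% and 26.3%. Against all wild type in the null the genes were lin-23, an F-box protein of the β-TrCP type (log2 0.84, adjusted p = 0.00787), and rbx-1, a RING subunit (log2 0.94, adjusted p = 0.0238). In S784A they were rbx-1 (1.18) and ned-8, the ubiquitin-like protein that activates cullins (1.21). In mut-2 they were ned-8 (1.16) and cul-1, the scaffold of SCF (0.87). In mut-7 cul-1 (1.22), cul-3 (1.03), lin-23 (1.04) and the F-box gene prom-1 (1.04) were higher.

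Calls in this list also depended on the scaling. With DESeq2 size factors none of the SCF genes was called higher in the null, S784A or mut-2, and 1 (cul-1) was in mut-7, while 2 were called lower in each mut mutant. With all reads counted 2 were called lower in mut-2 and 1 higher in mut-7. With feature totals 11, 7, 10 and 14 were called higher. That scaling also raised the median of all features in the dpf-3 genotypes, as given above. The shares of all features called under these scalings are not given here, so the counts do not single out the list. Relative to the median of all features the list's median stood at 0.23, 0.26, 0.38 and 0.19 with TMM scaling. The summed small RNAs of the 38 genes took 6.18 to 7.47 of 10000 feature counts in wild type A–F, 10.9 to 11.6 in G–I, 14.2 to 16.98 in the dpf-3 genotypes and 20.7 to 28.6 in the mut mutants.

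The features most like each leading gene were found by the Pearson correlation of log2(CPM + 1) over the 6 group means, as a description over 6 points that share their libraries. For fbxc-43 they were an unnamed interval on chromosome V from 1598549 to 1599322 (r = 0.999), the gene ida-1 (r = 0.999) and the gene lrx-1 (r = 0.998). For fbxc-44 they were F08F3.8 (r = 0.994), an interval on chromosome IV from 13458850 to 13460090 (r = 0.993) and ecps-2 (r = 0.992). For fbxc-23 they were an interval on chromosome V from 17650697 to 17653244, W08F4.7 and T16H12.13, each at r = 0.999. No other fbxc gene was among them. The unnamed intervals near the family held little. Of 77 intervals that overlapped a member or lay within 1000 bases, 14 had a count, and together they had 49, at most 26 in 1 interval.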

How the data were processed

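Small RNA libraries of 21 samples were made by the submitters with the QIAseq miRNA kit after treatment with an RNA polyphosphatase, per the labels' protocols. The deposited table holds counts, whole numbers per feature and library. The submitters' processing notes name cutadapt 2.3, Bowtie 1.2.3, SAMtools 1.9, HTSeq 0.11.2 and ce11, with no roles. The sources used here give no strand setting, no handling of reads with several positions and no word on molecular identifiers. Rows for reads in no feature (53.1% to 90.7% of reads counted) or in several features (at most 0.110%) stayed out of library sizes.

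The counts were fitted in edgeR 4.0.16 (quasi-likelihood, R 4.3.3) with TMM scaling and filterByExpr (minimum count 10), which kept 5038 of 75393 features. A feature was called at a Benjamini-Hochberg adjusted p under 0.05 over all features tested. The main fit had a mean per genotype, and a second had separate means for wild type A–F and G–I. CPM are counts per 1000000 of the TMM-scaled library size. A bound takes 3 counts over a group, and intervals are exact 95% intervals for counts. Positions and names came from Ensembl WBcel235 (the same assembly as ce11) and RefSeq symbols. Of the 48 names 42 matched RefSeq. The 8 fbxc pseudogenes listed by RefSeq were left out. The fit was run on simulated counts with a dispersion of 0.00466 and no difference between the wild-type sets. The main fit had a dispersion of 0.0947, so that run does not speak for its calls. The members, gene lists and tests were chosen with earlier results of these data known. All tested members were named, with the 3 features most like each, and the SCF genes called in the main fit. Members under the filter were named after their values were seen. Marker lists are small RNAs against genes of sperm (31 genes, 0 tested), oocyte (7, 5 tested), muscle (5, 1 tested), neuron (6, 3 tested) and intestine (8, 1 tested). Alternatives were DESeq2 1.42.0 and its size factors, feature totals, all reads counted, no filter, genes only, each library left out, the replicate letter as a block and wild type as 2 sets. Figures used Python 3.11.15 and matplotlib 3.10.9.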

Additional observations from a re-analysis of the deposited data

How the results depend on the processing

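With no filter on low counts, which tests 28149 features and all 38 members with a count, 7 members were lower in mut-2, 9 in mut-7, 4 in wild type G–I, 4 were higher in G–I and 7 were higher in the dpf-3 than in the mut genotypes. With feature totals 1 member was lower in the null, 1 in S784A and 1 in G–I, and 2 were higher in G–I. With all reads counted 1 was lower and 2 higher in G–I. Shares of all features called under these scalings are not given here. Leaving out 1 library at a time gave 3 to 6 members lower in mut-2, 3 to 6 lower in mut-7 and 2 to 6 higher in the dpf-3 than in the mut genotypes, since a smaller smallest group lets more members through the filter in some of these fits. It gave 2 to 3 lower in the null, in S784A and in G–I.

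A called direction reversed for fbxc-43 in G–I against A–F, which was called lower (-0.37) with TMM scaling and called higher with feature totals (0.27) and with all reads counted (0.85), and was 0.0155 without the filter. Differences that were not called changed sign too. Between mut-2 and mut-7 fbxc-43 was -0.0122, -0.51 and -0.0018 in the same order, and -0.23 to 0.33 over left-out libraries. Between the null and S784A fbxc-23 was 0.11 with all reads counted and -1.51 to 0.83 over left-out libraries. The cause was not tested.

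Libraries with the same letter did not deviate together (correlations -0.0919 to 0.102), so the letters were not taken to pair samples. With the letter as a block 3 members were lower in each of the null, S784A, mut-2 and mut-7, and 3 were higher in the dpf-3 than in the mut genotypes. Letters D to I occur in wild type alone, so only wild-type libraries A, B and C informed the comparisons with wild type in that fit. The shares of all features called in it are not given here. fbxc-44 in the null passed under the block (adjusted p = 0.0158), and its log2 change was -1.05 to -0.63 in the 14 alternatives where it passed. In the 16 where it did not pass, the change was -0.90 to -0.0594. Over all alternatives 628 values of single genes kept direction and call, 26 gained the call, 6 lost it and 13 reversed. Of the 48 genes 45 had too few counts to test.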
